A study of Mus musculus with 2 samples.

Results

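The genes described here are 10 kinases, cyclins and phosphatases that control entry into mitosis: Cdk1, Ccna2, Ccnb1, Ccnb2, Cdc25a, Cdc25b, Cdc25c, Wee1, Plk1 and Aurka. They were chosen by name, and every entry of an E2F1 peak list that carries 1 of these symbols was taken. The 10 genes stand among 21900 protein-coding genes of a RefSeq table, and the list names 5587 gene symbols in all. The list held 9 entries for these genes, each a different peak, and they named 8 of the 10.

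The list comes from chromatin immunoprecipitation with sequencing (ChIP-seq), in which an antibody recovers the DNA bound by its protein. Hepatocytes, which make up most of the liver's mass, were grown in primary culture from C57Bl6J mice, infected with an adenovirus for E2F1 (Ad-E2F1) and fixed 36 h later. The 2 groups were DNA recovered with the anti-E2F1 antibody c-20 and input chromatin with no antibody, 1 record each, and both came from cells that carried the vector. No cells without the vector were analysed here, so E2F1 at its normal level has no value below. The sources used here do not say which promoter drives E2F1 in the vector, and a peak list holds no expression values by which the cell type could be checked.

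Mitosis begins when the kinase CDK1, bound to cyclin A2 or to a B-type cyclin, becomes active. WEE1 holds CDK1 back by phosphorylating it, and the CDC25 phosphatases remove that phosphate. Polo-like kinase 1 and Aurora A kinase act upstream in the same switch and then build the spindle. E2F1 is known for activating genes of S phase, while many genes of mitotic entry are known targets of the DREAM and B-MYB complexes, which reach DNA through a short element called CHR (cell cycle genes homology region). Adult hepatocytes divide rarely.

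E2F1 peaks lay at the promoters of 5 of the 10 genes: Cdk1, Cdc25a, Plk1, Cdc25c and Ccna2. A promoter peak is taken here as one whose summit lies no more than 1000 bp from a transcription start site (TSS). Of all protein-coding genes 13.1% had one. Fold enrichment over the input background, as the authors' peak caller gave it, was 45.17 at Cdk1, 31.66 at Cdc25a, 30.82 at Plk1, 8.43 at Cdc25c and 7.36 at Ccna2. The first 3 stood far above the other 2, with a step of 3.66 times between Plk1 and Cdc25c. A promoter peak with a fold of at least 10 was found at 3 of the 10 genes and at 2.89% of all protein-coding genes. Over all 2612 promoter peaks the median fold was 6.48, with quartiles of 4.87 and 9.32, and 3 of the 5 genes lay above the upper quartile. The median over the 5 genes was 30.82. Each value belongs to a single peak of 1 list that is not split by replicate, so none carries a replicate error and no difference between genes was tested. All 5 genes kept a promoter peak among the peaks with an authors' false discovery rate of at most 1%. At that limit 8.01% of all protein-coding genes had one.

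The other 5 genes had no promoter peak. Ccnb2, Cdc25b and Aurka were named for a peak that lay elsewhere, and Ccnb1 and Wee1 had no listed peak. Counting peaks anywhere, 8 of the 10 genes were named, against 24.7% of all protein-coding genes.

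**Figure D1:**
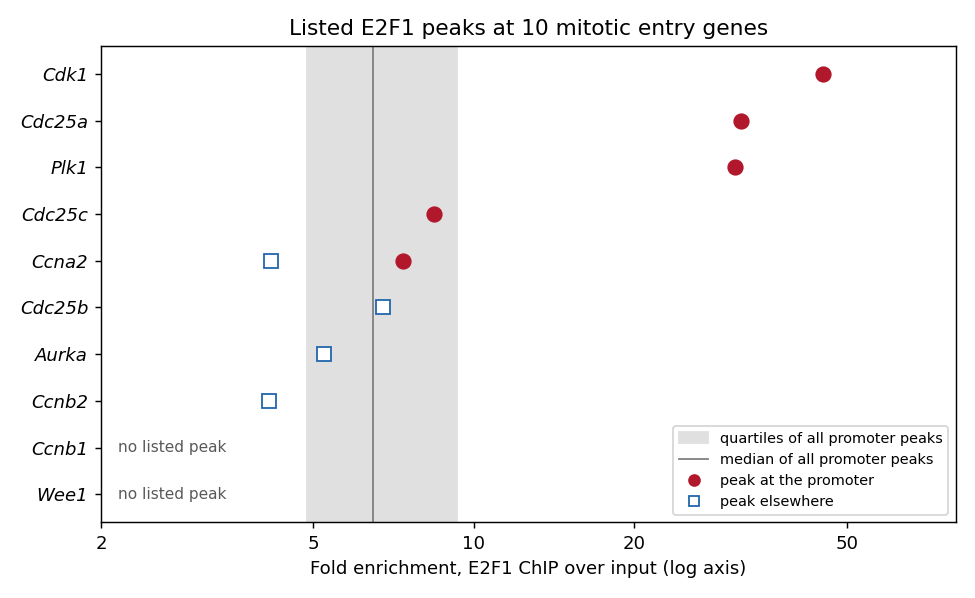
Fold enrichment of E2F1 ChIP over input (x axis, log scale) for each of the 9 listed peaks of the 10 genes (y axis); filled circles are promoter peaks, open squares are peaks elsewhere, and the grey band and line are the quartiles and median of all 2612 promoter peaks. Cdk1, Cdc25a and Plk1 lie right of the band, Cdc25c and Ccna2 lie inside it, and Ccnb1 and Wee1 have no point.

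The promoter sequences of 5 genes are shown because they contrast the 3 strongest peaks with a pair of cyclin promoters that held none. They are taken from RefSeq (build GRCm38.p6) and run from 250 bases before to 50 after the annotated start, on the strand of the gene. Capitals mark matches to the motifs named after them. Cdk1 lies at chr10:69352863-69353162 (minus strand), Cdc25a at chr9:109875329-109875628 (plus), Plk1 at chr7:122159185-122159484 (plus), Ccnb1 at chr13:100786437-100786736 (minus) and Ccnb2 at chr9:70421505-70421804 (minus). These coordinates are of a later build than the mm9 coordinates of the peaks below, and the 2 sets cannot be compared by number.
Cdk1: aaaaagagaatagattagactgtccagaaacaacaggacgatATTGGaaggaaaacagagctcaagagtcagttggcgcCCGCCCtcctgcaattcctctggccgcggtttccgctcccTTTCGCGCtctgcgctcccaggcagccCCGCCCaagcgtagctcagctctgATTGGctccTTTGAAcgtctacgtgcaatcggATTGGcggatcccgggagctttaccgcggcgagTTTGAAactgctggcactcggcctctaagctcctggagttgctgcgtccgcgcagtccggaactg
Cdc25a: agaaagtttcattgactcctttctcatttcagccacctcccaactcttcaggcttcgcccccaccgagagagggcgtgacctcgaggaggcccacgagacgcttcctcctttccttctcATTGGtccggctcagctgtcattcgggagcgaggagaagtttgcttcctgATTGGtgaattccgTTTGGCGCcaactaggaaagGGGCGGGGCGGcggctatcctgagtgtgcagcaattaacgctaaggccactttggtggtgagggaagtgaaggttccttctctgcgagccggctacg
Plk1: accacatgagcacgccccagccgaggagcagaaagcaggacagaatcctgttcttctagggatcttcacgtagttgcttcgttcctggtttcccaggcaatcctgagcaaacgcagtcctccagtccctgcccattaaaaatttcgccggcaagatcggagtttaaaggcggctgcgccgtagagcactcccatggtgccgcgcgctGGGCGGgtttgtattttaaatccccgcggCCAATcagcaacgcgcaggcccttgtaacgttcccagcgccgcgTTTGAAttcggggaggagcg
Ccnb1: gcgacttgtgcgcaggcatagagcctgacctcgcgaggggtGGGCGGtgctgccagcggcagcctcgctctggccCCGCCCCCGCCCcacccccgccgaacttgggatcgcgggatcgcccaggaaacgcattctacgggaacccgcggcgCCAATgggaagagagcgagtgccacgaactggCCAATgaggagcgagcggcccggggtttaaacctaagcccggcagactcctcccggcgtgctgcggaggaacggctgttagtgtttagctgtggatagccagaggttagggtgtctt
Ccnb2: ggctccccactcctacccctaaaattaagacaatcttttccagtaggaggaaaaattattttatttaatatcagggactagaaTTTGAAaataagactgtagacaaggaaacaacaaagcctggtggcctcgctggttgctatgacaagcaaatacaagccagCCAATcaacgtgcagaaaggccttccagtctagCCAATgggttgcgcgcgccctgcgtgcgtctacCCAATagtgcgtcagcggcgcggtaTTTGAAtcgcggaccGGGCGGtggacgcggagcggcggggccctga

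The motifs were searched on both strands. The E2F motif was any of TTTGGCGC, TTTCGCGC, TTTCCCGC and TTTGCCGC, and the CHR was TTTGAA or TTCGAA. The box bound by NF-Y was CCAAT and the GC box was GGGCGG. RefSeq sequences were found for 7 of the 10 genes, 3 with a promoter peak and 4 without. The E2F motif occurred in 2 of the 3 promoters with a peak. Cdk1 held TTTCGCGC from position -131 to -124 and Cdc25a held TTTGGCGC from -67 to -60, where the start is position 1. Plk1 held none of the 4 E2F strings, although its fold was close to that of Cdc25a. None of the 4 promoters without a peak (Ccnb1, Ccnb2, Cdc25b and Aurka) held one. The strings occurred in 2.26% of all 32851 promoter windows, in 8.18% of the 2910 windows of genes with a promoter peak and in 16.3% of the 633 windows of genes with a promoter peak of at least 10-fold. In the 29941 windows of genes with no promoter peak the share was 1.69%, so an E2F string in none of 4 such promoters is near the background. The 32851 windows outnumber the 21900 protein-coding genes. The shares given here for each motif are thus per window and not per protein-coding gene.

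The CHR letters were spread over both classes, with a match in 2 of 3 promoters with a peak and in 3 of 4 without, beside 15.4% of windows of genes with a promoter peak and 19.6% of windows of genes without one. Cdk1 had TTTGAA from -71 to -66 and again from -15 to -10. In Plk1 the same letters stood from 31 to 36, in Aurka from 33 to 38, and in Ccnb2 from -167 to -162 and from 5 to 10. Cdc25b had TTCGAA, which reads alike on both strands, from 8 to 13. Cdc25a and Ccnb1 held neither CHR string in this window, and other forms of the CHR were not searched. All 7 promoters held at least 1 NF-Y box (46.3% of windows of genes with a promoter peak and 36.5% of those without), with 3 in Cdk1 and 3 in Ccnb2. A GC box was found in 6 of the 7, Aurka being the exception, beside 68.4% of windows of genes with a promoter peak and 32.5% of those without. The GC boxes of Cdc25a from -47 to -42 and from -42 to -37 overlap by 1 base, and no other matches in these promoters overlap. A match describes the letters and does not show a bound site.

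**Figure D2:**
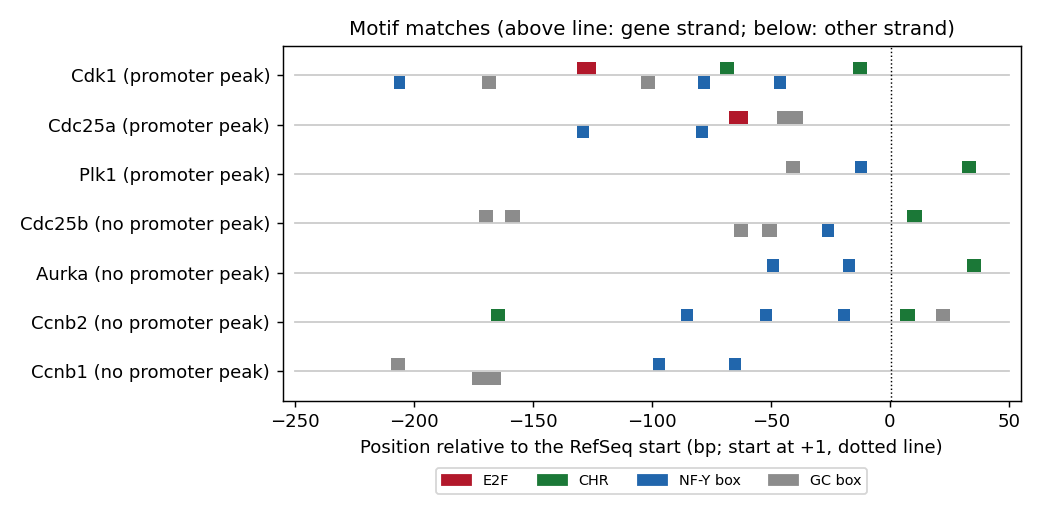
Positions of the 4 kinds of motif (coloured blocks) in the 7 promoters with a RefSeq sequence, in bp from the annotated start (x axis); blocks above each line match on the strand of the gene and blocks below on the other strand. E2F blocks appear in Cdk1 and Cdc25a, while CHR blocks appear in Cdk1, Plk1, Cdc25b, Aurka and Ccnb2.

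Among the kinase and its cyclins, Cdk1 had the strongest peak and the B-type cyclins had none at their promoters. The Cdk1 window, 301 bp centred on the summit, held the TSS and lay on chromosome 10 from 68815641 to 68815941 (mm9). Its region of 2231 bp held 511 tags (exact Poisson 95% interval 468 to 557, which covers counting error only), or 229.0 tags per kb. The pileup height was 332. By fold it was the third of 2612 promoter peaks, and its false discovery rate was 0%, a value shared by 256 of the 5667 listed peaks. No other gene was named for this peak. The next listed peaks lay 601838 bp away, inside Ank3, and 1071964 bp away, upstream of Arid5b.

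Ccna2, the gene of cyclin A2, was the one gene of the 10 with 2 listed peaks. At its promoter, on chromosome 3 from 36470851 to 36471151, the fold was 7.36 and the height 77. The second summit lay 6736 bp from the first. Its window, from 36464115 to 36464415, lay inside the gene and 6657 bp from the TSS by the authors' distance. The fold of this second peak was 4.17 and its height 34. Both regions held 274 tags (243 to 308), spread over 3212 bp at the promoter and 3865 bp inside the gene, or 85.3 and 70.9 tags per kb. The promoter peak was thus the stronger by fold, at 1.76 times, while the caller's score (10 times the negative log10 of its p-value) ran the other way. That score was 238.09 at the promoter and 277.75 inside the gene, with false discovery rates of 0.2% and 0.08%. The peak inside the gene was also named for Bbs7, as 7648 bp past the end of that gene.

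The 2 B-type cyclins, which carry CDK1 through mitosis itself, differed from Cdk1 and Ccna2 in having no promoter peak. Having none is the common case, as 13.1% of all protein-coding genes had a promoter peak. Ccnb2 was named for a peak 16283 bp upstream, on chromosome 9 from 70285645 to 70285945. It had a fold of 4.14, 128 tags (107 to 152) and a height of 42. The window lay inside Rnf111, 65587 bp from the start of that gene, although Ccnb2 was marked as the closest. In RefSeq gene order the gene next to Ccnb1 is Cenph, of the kinetochore, and Cenph had a promoter peak with a fold of 11.52 and 217 tags. Pik3r1, the second gene on the other side, had one with a fold of 4.19. The caller's serial numbers follow position on all 21 chromosomes, and 6 numbers between these 2 peaks are missing from the list. The caller thus numbered peaks in the stretch that holds Ccnb1 by gene order, and the sources used here do not say where they lay or why they were left out. A pseudogene, Ccnb1-ps, is annotated on another chromosome, and the handling of reads with several matches is not stated either. Whether this affected the list at Ccnb1 was not tested.

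The 3 CDC25 phosphatases, which switch CDK1 on, spanned the whole range from one of the strongest promoter peaks to no promoter peak. Cdc25a, which also acts at the start of S phase, had its window over the TSS on chromosome 9 from 109777848 to 109778148. The region held 459 tags (418 to 503) in 1437 bp. That is 319.4 tags per kb, the densest of the 9 regions. The height was 256 and the fold was the 21st of the promoter peaks. By score Cdc25a (2742.24) stood above Cdk1 (2584.57), whereas by fold, tags and height it stood below. The Poisson intervals of the tag counts of Cdc25a and Cdk1 overlap.

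Cdc25c, the phosphatase most closely tied to mitosis, had a weaker and broader promoter peak on chromosome 18 from 34911271 to 34911571. The window ended 83 bp upstream of the TSS. Its region of 3420 bp held 310 tags (276 to 347), more than that of Plk1, but only 90.6 per kb. The height was 110 and the false discovery rate 0.68%. Of all promoter peaks, 69.4% had a lower fold. The next listed peak on 1 side, 99941 bp away, was the promoter peak of Cdc23, a subunit of the anaphase-promoting complex, with a fold of 8.13.

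Cdc25b had no promoter peak. The peak named for it lay 11769 bp past the end of the gene, on chromosome 2 from 131036003 to 131036303, with a fold of 6.75, 155 tags (132 to 181) and a height of 85. The authors marked 2310035K24Rik (now Ap5s1) as the closest gene, and the window lay inside that gene 3181 bp from its start. When peaks are counted for their closest gene, Cdc25b has none.

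Wee1, the kinase that opposes CDC25, had no listed peak. Of its neighbours in RefSeq gene order, Zfp143 and Swap70 had none either. Ipo7, the second gene on 1 side, had a promoter peak with a fold of 8.12, and Sbf2, the second on the other, was named for a peak that did not meet the promoter rule. Between these 2 peaks 9 serial numbers are not listed. The absence of a listed peak at Wee1 or Ccnb1 therefore does not show whether E2F1 was bound there. The same limit holds for the promoters of Ccnb2 and Cdc25b. Towards lower coordinates 2 numbers were unlisted beside the Ccnb2 peak and 2 beside the Cdc25b peak. Towards higher coordinates these were 5 and 0. Beside the Aurka peak 2 were unlisted towards lower coordinates and 0 towards higher.

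Of the mitotic kinases Plk1 and Aurka, Plk1 had a strong promoter peak and Aurka had none. The Plk1 window held the TSS on chromosome 7 from 129302747 to 129303047, and the fold was the 22nd of all promoter peaks. The region of 1385 bp held 258 tags (227 to 291), or 186.3 per kb, with a height of 208 and a false discovery rate of 0%. The tag count was lower than at Ccna2 and Cdc25c, and its interval overlaps both of theirs, yet the fold was several times theirs. The next peak, 26471 bp away with no unlisted number between, lay at the promoter shared by Dctn5 and Palb2, a partner of BRCA2 in DNA repair, with a fold of 13.34. Aurka was named for a peak 6139 bp past its end, on chromosome 2 from 172175250 to 172175550. It had a fold of 5.23, 114 tags (94 to 137) and a height of 51. With a false discovery rate of 8.23%, close to the highest of the list (8.57%), and the lowest score of the 9 peaks (50.96), this was the least certain of them by the caller. Its window lay inside 2010011I20Rik (now Fam210b), the gene marked as closest, 4185 bp from the start of that gene.

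**Figure D3:**
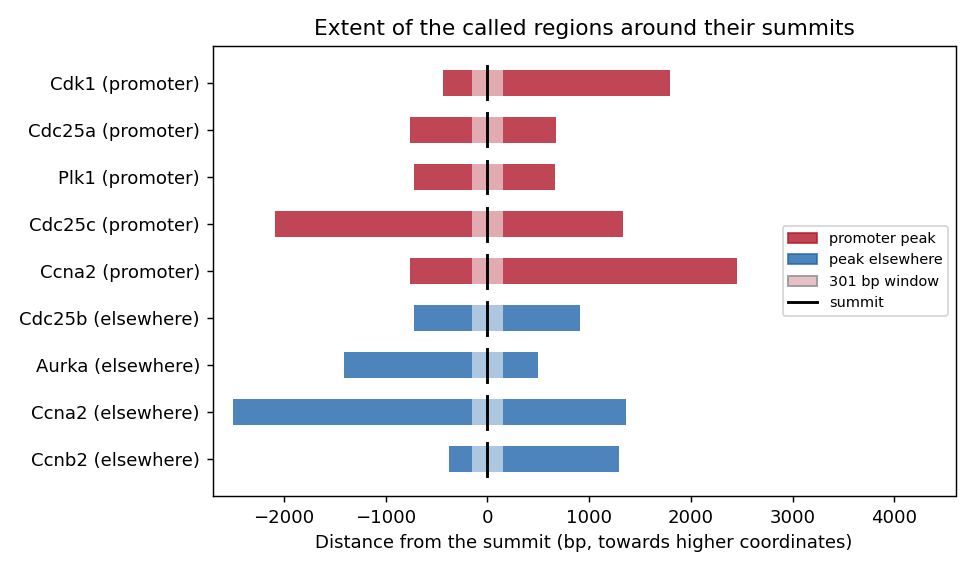
Extent of the 9 called regions around their summits, in bp (x axis), with promoter peaks in red and peaks elsewhere in blue; the pale block is the 301 bp window and the black tick the summit. The regions of Cdc25a and Plk1 are short, at 1437 and 1385 bp, and that of Cdk1, at 2231 bp, reaches mostly to 1 side of its summit; those of Cdc25c and the Ccna2 promoter span 3420 and 3212 bp.

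How the 5 promoter peaks ranked depended on the measure. By fold, their ranks among the 2612 promoter peaks were 3 for Cdk1, 21 for Cdc25a, 22 for Plk1, 797 for Cdc25c and 1058 for Ccna2. By tag count, the same peaks stood at 43, 67, 558, 302 and 470, so that Plk1 fell behind Cdc25c and Ccna2. By pileup height the ranks were 23, 52, 91, 430 and 892, which is the order given by fold. By score they were 13, 11, 74, 1160 and 829, which put Cdc25a first and Cdc25c last. From the highest to the lowest of the 5 peaks, the fold spanned 6.14 times, the height 4.31 times and the tag count 1.98 times. The height divided by the fold was 7.35 at Cdk1, 8.09 at Cdc25a, 6.75 at Plk1, 13.05 at Cdc25c and 10.46 at Ccna2. The 3 peaks of highest fold thus had the 3 lowest of these values, and the median over all promoter peaks was 9.58. As the fold is the divisor, a high fold by itself lowers this value. Cdk1, Cdc25a and Plk1 stood above the other 2 by fold, by height, by score and by tags per kb.

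**Figure D4:**
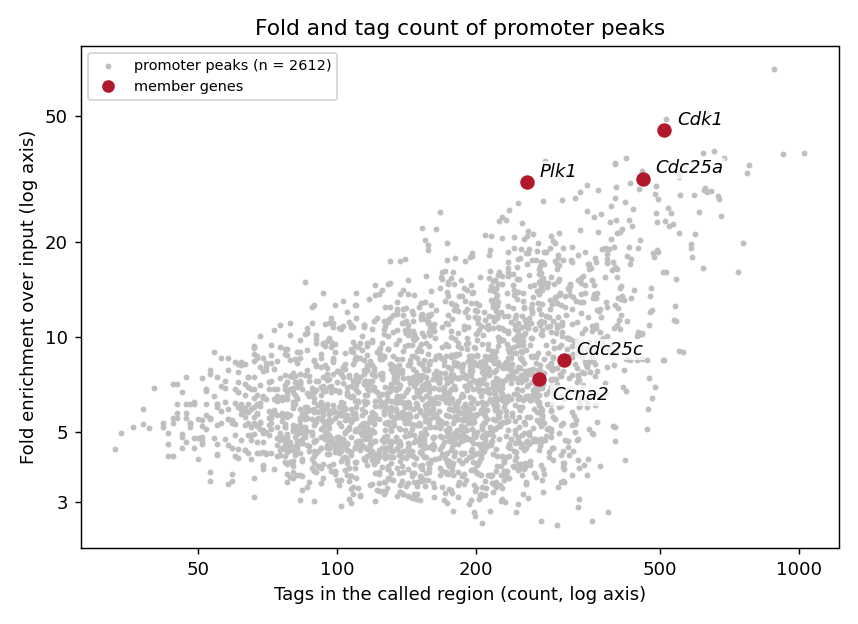
Fold enrichment over input (y axis, log scale) against tags in the called region (x axis, log scale) for all 2612 promoter peaks in grey and the 5 peaks of the genes described here in red. Plk1, with 258 tags and a fold of 30.82, lies at the upper edge of the grey points at its tag count, while Ccna2 and Cdc25c lie among them.

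For 4 of the 5 promoter peaks, the peak most like each is given, found by the distance in log2 fold, log2 tags and log2 height, in the 1 comparison of ChIP with input. Cdk1 came closest to the peak shared by Cchcr1 and Tcf19 (fold 49.01, 515 tags, height 297). For Cdc25a it was Cdca7 (30.56, 430 tags, 275), and for Plk1 the peak shared by Cdca5 and Zfpl1 (31.73, 304 tags, 193). Ccna2 was closest to Yeats4 (7.65, 281 tags, 78).

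Around these 10 genes, 43 others that control entry into mitosis and exit from it were examined in 6 lists. Promoter peaks were found at 13 of them (30.2%, beside 13.1% over the protein-coding genes), and 6 more were named for peaks elsewhere. Counting peaks anywhere, 19 of the 43 were named, against 24.7% of all protein-coding genes. The median fold of the 13 promoter peaks was 7.2, from 4.21 to 25.31. A promoter fold of at least 10 was found at 5 of the 43, beside 2.89% of all protein-coding genes. All 13 promoter peaks were below the folds of Cdk1, Cdc25a and Plk1. No test of the lists was made.

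Of the genes that restrain or activate CDK1, 2 of 12 (16.7%) had a promoter peak, near the 13.1% of all protein-coding genes. Chek1, the checkpoint kinase that inactivates CDC25, had a fold of 14.06. Pkmyt1, the membrane-bound relative of WEE1, had 7.04 with 154 tags, so that of the kinases placing the inhibitory phosphate only this one had a promoter peak, Wee1 and Wee2 having no listed peak. Cdkn1a, the gene of the inhibitor p21, had 3 peaks, none at the promoter as defined here. Their folds were 13.63 at 2455 bp and 11.17 at 4265 bp inside the gene, and 4.22 just past its end. Of the kinase that activates CDK1, Cdk7 and Mnat1 were named for peaks away from the promoter (4.17 and 4.41), and Ccnh had none. Cks1b, Cks2 and Chek2 had no listed peak, while Gadd45a and Sfn had one at or past the 3' end.

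None of the 3 further cyclins examined, Ccna1, Ccnb3 and Ccnf, had a listed peak, where 24.7% of all protein-coding genes had one. With Ccnb1 and Ccnb2, this left Ccna2 as the one gene with a promoter peak among the 6 A-type, B-type and F cyclins examined. That count is near the 13.1% of all protein-coding genes with a promoter peak.

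Among Polo and Aurora kinases and their activators, 4 of 10 genes (40%) had a promoter peak, beside 13.1% of all protein-coding genes. Of these 4, 3 belong to the chromosomal passenger complex, which holds Aurora B at centromeres. Incenp, its scaffold, had the highest fold of the 43 genes, 25.31 with 438 tags. Aurkb itself had 14.45 with 276 tags and Birc5, the gene of survivin, 13.26. Aurkb had a promoter peak where Aurka had none, and was also named for a peak upstream with a fold of 4.66. Tpx2, the activator of Aurora A on the spindle, had 8.65 with 267 tags. Plk2, Plk3, Plk4, Aurkc, Bora and Nek2 had no listed peak, so that Plk1 was the one Polo-like kinase of 4 with a peak. That count is near the 24.7% of all protein-coding genes with any listed peak.

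The Greatwall pathway keeps the phosphatase PP2A-B55 off during mitosis. Promoter peaks were found at 3 of the 7 genes examined in it (42.9%, beside 13.1% of all protein-coding genes). Ensa had a fold of 7.2 at a promoter peak also named for Golph3l. Mastl, the gene of Greatwall kinase, had 4.35 at a peak also named for Yme1l1, and the scaffold subunit Ppp2r1a had 4.24. The false discovery rates of these peaks were 1.81% and 3.53%. Mastl also had peaks inside the gene, with folds of 4.95 and 3.48. Arpp19, Ppp2ca, Ppp2r2a and Ppp2r2d had no listed peak. Of 7 genes of mitotic degradation and exit, Ube2c (5.89) and Cdc14a (4.21) had a promoter peak (28.6%, beside 13.1% of all protein-coding genes). Their false discovery rates were 3.21% and 1.25%. Cdc14a also had a peak inside the gene with a higher fold, 6.26. Cdc14b was named for a peak inside the gene with a fold of 3.12, and Cdc20, Fzr1, Fbxo5 and Btrc had no listed peak. Among 4 regulators of G2/M transcription, 2 (50%) had a promoter peak, beside 13.1% of all protein-coding genes. Mybl2, the gene of B-MYB, had 18.85. Lin54, the subunit of DREAM that binds the CHR, had 5.34 with a false discovery rate of 2.61%. Foxm1 and Nfya had no listed peak.

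**Figure D5:**
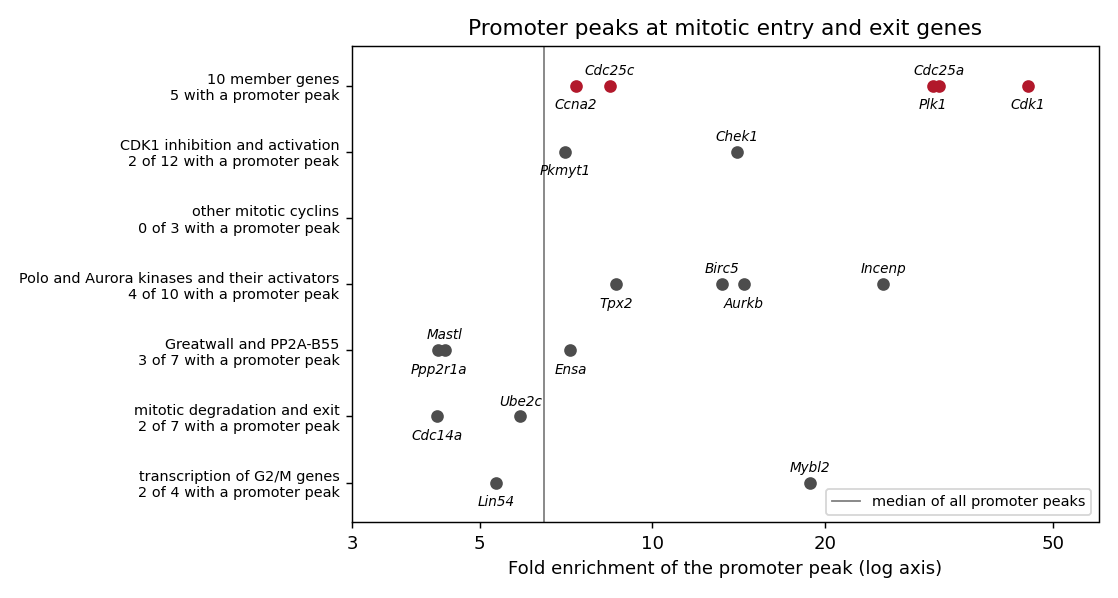
Fold enrichment of promoter peaks (x axis, log scale) for the genes described here (red) and for 43 other genes in 6 lists (dark grey); each point is 1 gene with a promoter peak and the line is the median of all promoter peaks. Cdk1, Cdc25a and Plk1 lie to the right of all 13 other genes plotted, the nearest of which is Incenp at 25.31.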

How the data were processed

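The authors deposited 1 list of E2F1 peaks called over input. The submitters' processing notes name Bowtie2 (2.1.0) and the build mm9 (NCBIM37), and per the file headers peaks were called with MACS, with version and settings not stated in the sources used here. The series text speaks of 2 replicates of 2 ChIPs each, and does not say whether they were pooled. Per peak the authors deposited a tag count, a pileup signal (height), a fold (ratio over input), a score (10 times the negative log10 of p) and a false discovery rate in percent. A further column (FERR) is unexplained and was not used. Library depth is unknown. The list holds 5667 peaks with serial numbers from 2 to 18908, of which 13240 are not listed.

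Distances are the authors', from the 301 bp window to the TSS. Entries past a gene end or in a 3' UTR carry a distance to the gene end and were not counted as promoter peaks. Promoter peaks had a window edge within 850 bp of a TSS. Of 5587 symbols, 5493 matched a symbol or a unique synonym in RefSeq (GRCm38.p6). All 10 genes and the 43 others are named (1 gene removed from the lists and 1 likeness are not reported here), with the genes and lists chosen with earlier results of these data known. Poisson 95% intervals on tags cover counting error only. With 1 list, no test between samples was possible. Motif and promoter counting (Python 3.11.15, pandas 2.3.3) was tested on simulated data.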

Additional observations from a re-analysis of the deposited data

How the results depend on the processing

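The same 5 genes had a promoter peak with summits within 500 or 5000 bp of the TSS, with the authors' promoter class, among the peaks with a score at or above the median, those with a fold in the top 25% of all listed peaks (at least 7.28, with Ccna2 just inside at 7.36) or those with a false discovery rate of at most 1%, and with the closest gene only. In the top 25% of promoter peaks alone, a setting chosen after seeing the data, 3 of the 10 genes had one. The background was 3.32% of all protein-coding genes. Counting any listed peak gave 8. The share of all protein-coding genes was 11.5% within 500 bp, 15.3% within 5000 bp and 13.2% with the authors' promoter class. It was 9.35% by score, 5.49% by fold among all listed peaks and 8.01% by false discovery rate. With the closest gene only it was 11.7%. Over all these settings it ranged from 3.32% to 24.7%. Of the 43 other genes, 13 had a promoter peak, against 6 in the top 25% by fold (background 5.49%) and 8 at a false discovery rate of at most 1% (background 8.01%). The median fold of 30.82 was 7.895 when the strongest peak anywhere was taken, which adds 3 genes. Most ranks among promoter peaks moved by more than 1.5 times with the measure, the exceptions being Cdc25c by score and Ccna2 by score and height. For Cdk1 the rank by fold, 3, became 43 by tags, 13 by score and 23 by height. For Cdc25a 21 became 67, 11 and 52, and for Plk1 22 became 558, 74 and 91. Cdc25c went from 797 to 302 by tags and 430 by height, and Ccna2 from 1058 to 470 by tags. No paired analysis was possible because the list is not split by replicate, and no replicate could be left out. The unknown depth and the unlisted peaks limit what an absent peak shows.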
